A study of Mus musculus with 15 samples.

Results

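Genes of the YAP/TEAD branch of the Hippo pathway were followed through the first 48 h of culture of mouse dental mesenchymal cells (mDMCs). The list held 10 genes by name: the coactivator genes Yap1 and Wwtr1, the DNA-binding partner genes Tead1 and Tead2, and the target genes Ccn1 and Ccn2 (formerly Cyr61 and Ctgf), Ankrd1, Amotl2, Lats2 and Axl. Of these, 9 had a row among the 12089 transcripts of the expression table, and all 9 passed the filter on low values. Lats2 had no row and was not analysed here. The rule for the list names the genes and uses no measured value, but the list was written with earlier results of these data known.

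In the Hippo pathway, a chain of kinases phosphorylates YAP and its paralogue TAZ, the product of Wwtr1, and keeps them out of the nucleus. When the chain is less active, as in cells that spread on a stiff surface or receive serum, YAP and TAZ enter the nucleus and bind TEAD proteins, which carry them to their target genes. The control acts mostly on the proteins, so the mRNA levels given here measure the expression of the factors and of their targets and not where the proteins were in the cell.

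The cells came from dental mesenchyme of the mandibular first molar germ of E14.5 ICR mouse embryos with no stated genetic change, separated from the epithelium with dispase and dissociated with trypsin. RNA-seq libraries were made from freshly isolated mDMCs (0 h, 3 libraries) and from mDMCs kept in medium with FBS for 12 h (2 libraries), 24 h (3), 36 h (3) and 48 h (3). A single library of dental mesenchymal tissue had no replicate. The sources used here do not say whether libraries of one time point came from separate litters or cultures, so the p-values measure only the spread between these libraries, which may be technical.

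Expression is given as the deposited score, a normalized value without a stated unit. All 15 libraries shared one distribution of scores with a median of 721, so a score is comparable between libraries for one gene, while scores of different genes are not compared here. High scores moved in coarse steps: Ccn1, Ccn2 and Amotl2 each took 5 distinct scores over the 11 cultured libraries, and Axl took 8. Each of the 9 genes had 1 row, named by a transcript. How that transcript was chosen is not given in the sources used here, so whether a score measures that transcript or the whole gene is not known. Sequencing depth is unknown. Changes are differences of log2(score + 1), which understate the change of a gene with low scores.

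Short stretches of the promoters are shown because TEAD proteins reach their target genes through a short DNA motif. A promoter window of 250 bases before and 50 bases after the transcription start (RefSeq, GRCm38.p6) was present for 8 of the 10 genes, not for Tead1 and Ccn2. The TEAD motif, GGAATG on the gene's strand or CATTCC where it lies on the opposite strand, was in at least 1 window of 7 of these 8 genes. Wwtr1 and Lats2 have 2 windows each, and counted by window the motif was in 8 of 10, the 2 windows of Wwtr1 sharing 1 match, against 14.7% of 32851 promoter windows of the same length. Each line gives 30 bases from 5′ to 3′ on the gene's strand, with the motif in capitals.
Yap1, chr9:8004720-8004749, minus strand: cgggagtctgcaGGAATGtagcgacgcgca
Wwtr1, chr3:57576029-57576058, minus strand: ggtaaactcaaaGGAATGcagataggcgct
Ccn1, chr3:145650071-145650100, minus strand: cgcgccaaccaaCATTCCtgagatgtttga
Ankrd1, chr19:36120037-36120066, minus strand: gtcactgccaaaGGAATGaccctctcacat
Ankrd1, chr19:36119950-36119979, minus strand: gacactaagtctGGAATGaaaattcacctg
Amotl2, chr9:102717727-102717756, plus strand: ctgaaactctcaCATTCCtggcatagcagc
Axl, chr7:25788949-25788978, minus strand: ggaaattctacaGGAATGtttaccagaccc

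Matches lay on the gene's strand in Yap1, Wwtr1, Ankrd1 and Axl and on the opposite strand in Ccn1 and Amotl2. Of the 2 windows of Lats2, the first held a match from 5 to 10 bases after the start and the second held none, and the window of Tead2 held none. The AP-1 motif TGANTCA (7.81% of all windows) and the CArG box bound by SRF (1.63%) were in none of the 8 genes' windows on either strand. A match of letters is a description of the window and does not show binding. Not every window lies outside transcribed sequence. In the GENCODE M21 annotation, exons of the same gene cover all 250 bases before the start in the window of Ankrd1 and 136 of the 250 in that of Amotl2, whose stretch above lies inside the span of the transcript that names its row. The stretch of Ccn1 above comes from the following 250 bases before its start, chr3:145649986-145650235 on the minus strand, in which the single TEAD match ends 98 bases before the start (position -98).
Ccn1 upstream: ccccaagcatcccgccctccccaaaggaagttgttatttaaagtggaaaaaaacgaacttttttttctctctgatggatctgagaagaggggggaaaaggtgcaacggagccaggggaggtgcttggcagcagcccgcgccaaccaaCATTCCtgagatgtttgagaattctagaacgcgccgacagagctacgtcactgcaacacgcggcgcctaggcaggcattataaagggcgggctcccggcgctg

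**Figure D1:**
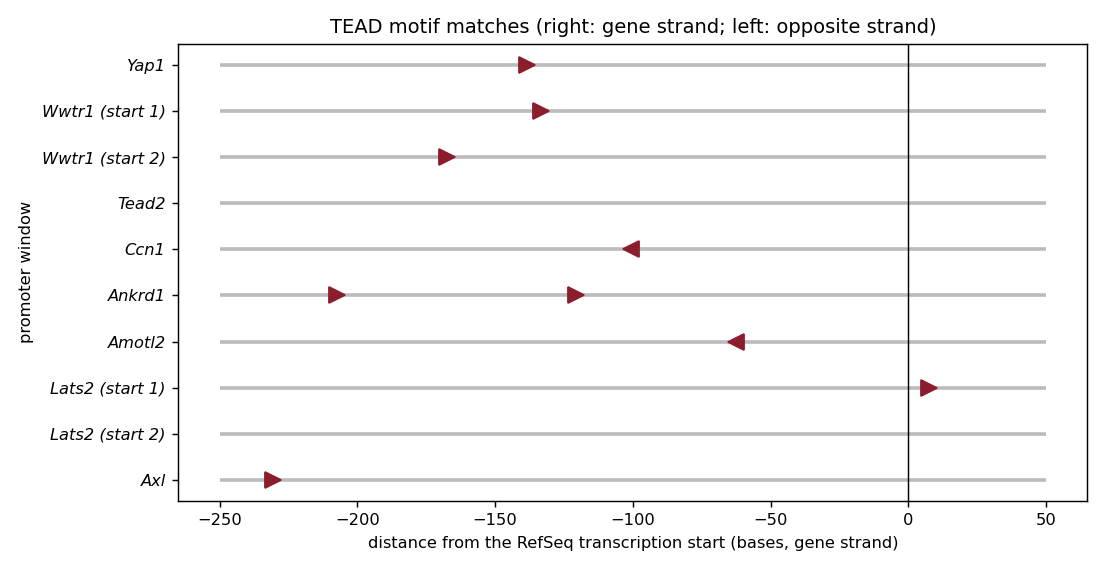
TEAD motif matches in the promoter windows of 8 genes. The x axis gives the distance from the RefSeq transcription start in bases along the gene's strand, each grey bar is a window of 300 bases, and arrows point right for a match on the gene's strand and left for one on the opposite strand. Except for that of Lats2, every match lies before the start, between positions -233 and -60, and Ankrd1 holds 2 matches in its window.

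Before the genes are described, libraries that stood apart are given, since they touch Tead1, Ccn1 and Amotl2. The third 0 h library was above the mean of the other 0 h libraries by 1.53 on the log2 scale for Ccn1, by 1.08 for Tead1 and by 0.79 for Amotl2, and a larger gap was seen in 0.911%, 2.92% and 6.67% of the 12079 transcripts tested. Between the 2 libraries of 12 h, Tead1 differed by 1.62, a gap that 76 transcripts exceeded. Across transcripts, the gaps between these libraries and their replicates rose with transcript length (Spearman rho 0.389 at 12 h and 0.244 to 0.282 for the third 0 h library, against -0.0694 to 0.134 for the other pairs of replicates, over 11963 transcripts). The part of transcript length in the gaps of single genes was not tested.

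Markers of other cell types also moved between 0 h and culture. The summed score of 9 endothelial markers was 10059 to 12177 at 0 h and 603 to 996 in the cultured libraries, and that of 5 red cell markers was 79096 to 131256 at 0 h and 41 to 702 in culture. Epithelial markers summed to 12742 in the first 0 h library but to as little as 1393 in another, and to 81 to 2576 in the cultured libraries, so that 0 h and culture overlapped. The single neuronal or glial marker with a row of 5 listed, Tubb3, scored 77 to 258 at 0 h and 269 to 1673 in culture. Macrophage markers, 5 of 7 with a row, summed to 1021 to 1450 at 0 h and to 498 to 1253 in culture, and by 48 h 4 of these 5 had fallen (limma, adjusted p below 0.05). The 10 dental mesenchyme markers that check the labelled cell type were above 0 in every library, of which 6 fell and 1 rose by 48 h, beside 34% lower and 37.1% higher among all transcripts tested. In bulk RNA, fewer cells of a type and less RNA per cell cannot be told apart, and the part of these markers in the changes given next was not tested.

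Most of the genes differed from 0 h after the first 12 h of culture, as did most transcripts tested. Ankrd1 passed the filter on low values only through the cultured libraries, in which it was high, so it is left out of the following counts. Of the other 8 genes, 6 were higher and 2 were lower at 12 h than at 0 h (limma, Benjamini-Hochberg adjusted p below 0.05), against 29.9% higher and 28.3% lower among all 12079 transcripts tested. At 24 h the calls were again 6 rises and 2 falls (35% and 31.8% of all transcripts). At 36 h there were 5 rises and 2 falls (36% and 34%), and at 48 h there were 4 rises and 2 falls (37.1% and 34%). With a p below 0.05, taken here as unadjusted, and a fold above 2, the 8 genes gave 5, 6, 6 and 5 calls in these comparisons, against 24.3%, 28%, 31.1% and 32.1% of all transcripts. The median change of the 8 genes was 1.503, 1.45, 1.14 and 0.91 on the log2 scale at the 4 time points, beside 0.02, 0.03, 0.02 and 0.03 over all transcripts. The 4 comparisons use the same 0 h libraries and are therefore not independent of each other. At 12 h, all cultured libraries lay above all 0 h libraries for 6 of the 8 genes and below them for 2, beside 33.7% above and 32.6% below among all transcripts. At 48 h the counts were 4 above, 2 below and 2 overlapping (37.3% above and 34.6% below among all transcripts).

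**Figure D2:**
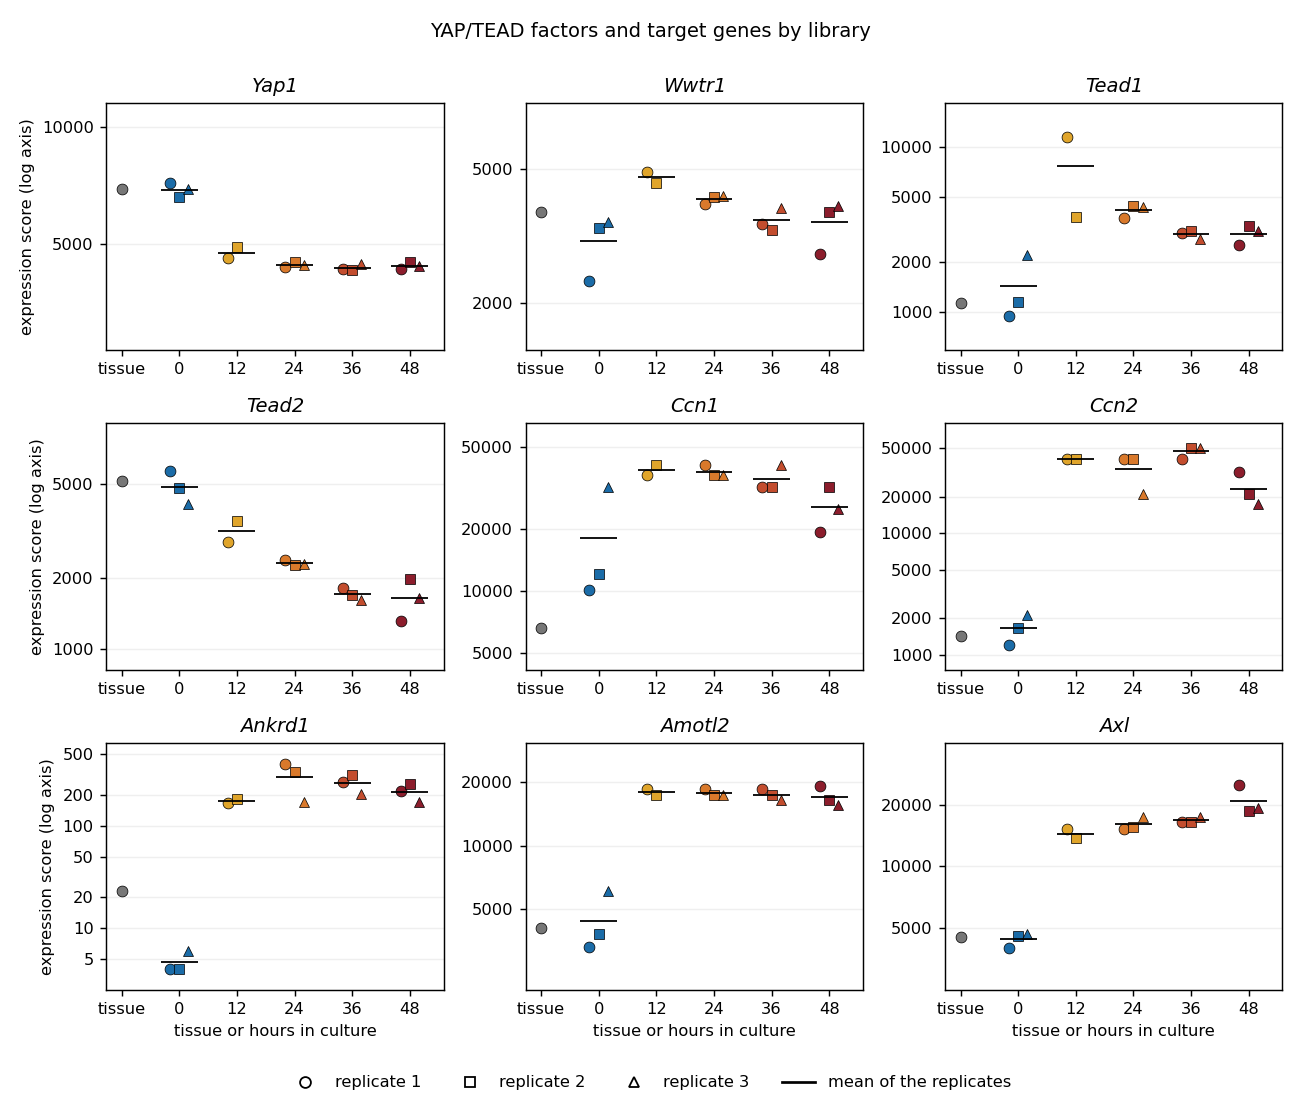
Expression score of the 9 genes in each library, on a log axis, for tissue (1 library) and mDMCs at 0, 12, 24, 36 and 48 h of culture. Points are libraries, shapes are replicate numbers and bars are means of the replicates. Yap1 and Tead2 lie lower in every cultured library than at 0 h, Ccn2, Ankrd1, Amotl2, Axl and Tead1 lie higher, and Wwtr1 and Ccn1 overlap with 0 h at 36 and 48 h.

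Yap1 encodes the coactivator YAP. Its row was ENSMUST00000086580, on the minus strand of chr9:7931999-8004588 (mm10), a transcript of 8 exons and 4115 bases. The 0 h libraries had scores of 7191, 6617 and 6910 (6906 ± 287, SD, n = 3). Scores were 4601 and 4917 at 12 h, 4366, 4498 and 4420 at 24 h, 4329, 4292 and 4449 at 36 h, with 4330, 4498 and 4396 at 48 h. Every cultured library was below every 0 h library, and the replicates of 24, 36 and 48 h lay within 1.03 to 1.04-fold of each other. Yap1 fell by 0.54 on the log2 scale at 12 h (SE 0.07, limma adjusted p = 2.63e-05) and by 0.65 at 48 h (SE 0.06, adjusted p = 9.03e-07). The fall was modest beside those of other transcripts, since 24.0% of all transcripts tested fell more by 48 h.

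Wwtr1 encodes TAZ, the paralogue of YAP. Its row was ENSMUST00000029380, on the minus strand of chr3:57455649-57575828, with 7 exons and 4697 bases. Scores at 0 h were 2329, 3348 and 3480, the lowest being the first library, which also had the epithelial marker sum of 12742 given above. They were 4917 and 4562 at 12 h and 3947, 4125 and 4166 at 24 h, all above 0 h. At 36 h they were 3441, 3306 and 3850, and at 48 h 2809, 3725 and 3899, so that these groups overlapped with 0 h. Wwtr1 rose by 0.66 at 12 h (SE 0.17, limma adjusted p = 0.00471) and by 0.44 at 24 h (SE 0.15, adjusted p = 0.0197). The change was 0.23 at 36 h and 0.20 at 48 h (SE 0.15 each), with limma adjusted p = 0.186 and 0.257, so a difference from 0 h was not shown at these times. With each library left out in turn, the change ranged from 0.046 to 0.336 at 36 h and from 0.012 to 0.343 at 48 h. The call at 24 h was lost without the first 0 h library (0.26, adjusted p = 0.0911) and without the second 24 h library (0.43, adjusted p = 0.0501).

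The coactivator genes thus moved in opposite directions at 12 and 24 h. Within each library, log2(score + 1) of Yap1 minus that of Wwtr1 averaged 1.20 over the 0 h libraries (0.98 to 1.63) and 0.21 over the 11 cultured libraries (-0.10 to 0.62). A difference of this kind is compared only between libraries, so an effect of transcript length that is the same in every library cancels, whereas the length effects of single libraries given above do not. It fell by 0.99 in culture and lay below all 0 h libraries in 11 of 11 cultured libraries (exact two-sided permutation test over 364 divisions of the libraries, p = 0.00275, the smallest these divisions can give). The p-value adjusted over the 3 pairs tested was also 0.00275. How many other pairs of transcripts would separate from 0 h in this way was not determined. At 12 h, 33.7% of single transcripts lay above all 0 h libraries and 32.6% below them. The separation is therefore not shown to be particular to these 3 pairs.

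Tead1 encodes one of the DNA-binding partners of YAP and TAZ. Its row was ENSMUST00000084705, on the plus strand of chr7:112679318-112899459, with 12 exons and 2543 bases. Scores at 0 h were 947, 1146 and 2205, with the third library above the others. At 12 h they were 11557 and 3762, an SD of 5510 around a mean of 7660. They were 3724, 4418 and 4364 at 24 h, 3029, 3082 and 2782 at 36 h, with 2554, 3324 and 3092 at 48 h. Every cultured library was above every 0 h library. Tead1 rose by 2.30 at 12 h (SE 0.39, limma adjusted p = 0.000261), 1.64 at 24 h (SE 0.35, adjusted p = 0.0011), 1.15 at 36 h and 1.15 at 48 h (SE 0.35 each, adjusted p = 0.0103 and 0.00991). The library of 12 h that stood apart set the size of the first rise. Without it the rise at 12 h was 1.49 (adjusted p = 0.0035), and without the third 0 h library it was 2.66 (adjusted p = 7.88e-05).

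Tead2, the TEAD gene best known from embryonic tissue, fell. Its row was ENSMUST00000033060, on the plus strand of chr7:45215753-45233644, with 12 exons and 2140 bases. Scores were 5667, 4808 and 4108 at 0 h and 2861 and 3486 at 12 h. They were 2393, 2278 and 2288 at 24 h, 1824, 1696 and 1614 at 36 h, with 1315, 1983 and 1658 at 48 h. Every library of 36 h was below every library of 24 h, which in turn was below every library of 12 h and of 0 h. Tead2 fell by 0.61 at 12 h (SE 0.16, limma adjusted p = 0.00599), by 1.05 at 24 h (SE 0.14, adjusted p = 3.03e-05) and by 1.56 at 48 h (SE 0.14, adjusted p = 7.11e-07). Without the first 12 h library the fall at 12 h was 0.47, with adjusted p = 0.0736.

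The difference Tead1 minus Tead2 averaged -1.85 over the 0 h libraries (-2.58 to -0.90) and 0.88 over the cultured libraries (0.11 to 2.01). It rose by 2.72 in culture and lay above all 0 h libraries in 11 of 11 cultured libraries (exact two-sided permutation test, p = 0.00275, adjusted p = 0.00275). The highest value, 2.01, belonged to the 12 h library in which Tead1 stood apart, and the 9 libraries of 24, 36 and 48 h lay between 0.64 and 0.96.

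**Figure D3:**
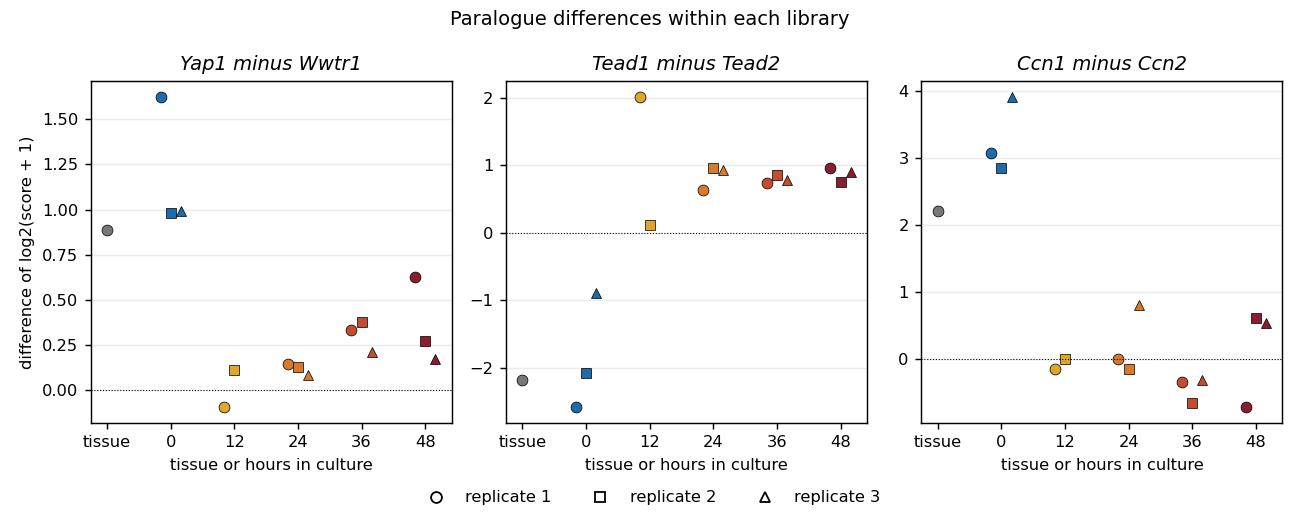
Difference of log2(score + 1) between paralogues within each library, for Yap1 minus Wwtr1, Tead1 minus Tead2 and Ccn1 minus Ccn2, by hours in culture, with the tissue at the left. Points are libraries and shapes are replicate numbers. In each panel the 11 cultured libraries lie on one side of the 3 libraries of 0 h, lower for the first and last pair and higher for Tead1 minus Tead2, and the tissue lies on the side of 0 h.

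Ccn1 and Ccn2 encode secreted matricellular proteins that bind integrins and are standard readouts of YAP activity. The row of Ccn1 was ENSMUST00000029846, on the minus strand of chr3:145646976-145649981, with 5 exons and 2019 bases. Its scores at 0 h were 10111, 12096 and 31886, the widest spread of the 9 genes at 0 h, with the highest 3.15 times the lowest. In culture they were 36428 and 40684 at 12 h, 40684, 36428 and 36428 at 24 h, 31886, 31886 and 40684 at 36 h, with 19261, 31886 and 25068 at 48 h. The first 2 time points lay above all 0 h libraries, and the 36 h and 48 h groups overlapped with the third 0 h library.

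Ccn1 rose by 1.29 at 12 h (SE 0.37, limma adjusted p = 0.00943), 1.26 at 24 h (SE 0.33, adjusted p = 0.0045) and 1.14 at 36 h (SE 0.33, adjusted p = 0.00809). At 48 h the change was 0.66 (SE 0.33, adjusted p = 0.0911). The third 0 h library decided this last call, because without it the change at 48 h was 1.17 (adjusted p = 0.00017) and that at 12 h was 1.80 (adjusted p = 2.20e-05). The call at 12 h was lost without the second 12 h library (1.21, adjusted p = 0.0564) and when only 0 and 12 h entered the fit (adjusted p = 0.0714).

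The row of Ccn2 was ENSMUST00000020171, on the plus strand of chr10:24595442-24598678, with 5 exons and 2398 bases. Its scores were 1204, 1672 and 2109 at 0 h and 40642 in both libraries of 12 h. They were 40642, 40642 and 20869 at 24 h, 40642, 50435 and 50435 at 36 h, with 31803, 20869 and 17357 at 48 h. All cultured libraries were far above 0 h, and the groups at 36 h and 48 h did not overlap. Ccn2 rose by 4.65 at 12 h (SE 0.31, limma adjusted p = 1.25e-07), 4.86 at 36 h (SE 0.28, adjusted p = 1.17e-08) and 3.80 at 48 h (SE 0.28, adjusted p = 9.72e-08). At 12 h, 87 of the 12079 transcripts tested rose more, or 0.72%.

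The difference Ccn1 minus Ccn2 averaged 3.28 over the 0 h libraries (2.85 to 3.92) and -0.04 over the cultured libraries (-0.72 to 0.80). It fell by 3.32 in culture and lay below all 0 h libraries in 11 of 11 cultured libraries (exact two-sided permutation test, p = 0.00275, adjusted p = 0.00275). Ccn2 rose more than Ccn1 on this scale, a comparison that includes the third 0 h library in which Ccn1 was already high. Ccn1 stood near the top of the shared distribution, with 31 to 461 transcripts above it in the 15 libraries and a shared maximum of 127101. It had less room to rise than Ccn2, so this test cannot tell a different response from a different starting level.

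Ankrd1 encodes an ankyrin repeat protein of the nucleus and the sarcomere and is among the most used YAP target genes. Its row was ENSMUST00000025718, on the minus strand of chr19:36111966-36119910, with 9 exons and 1818 bases. Its scores at 0 h were 4, 4 and 6, close to the bottom of the table. They were 169 and 182 at 12 h, 403, 334 and 171 at 24 h, 268, 316 and 203 at 36 h, with 218, 254 and 173 at 48 h. Ankrd1 passed the filter, a score of at least 21.4 in 2 libraries, only through the cultured libraries, so that it had to differ to be tested, and its changes are given as a description with no test.

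All cultured libraries had a higher score of Ankrd1 than any 0 h library. The change from 0 h was 4.98 at 12 h (SE 0.33), 5.67 at 24 h, 5.53 at 36 h and 5.25 at 48 h (SE 0.29 each), larger than that of Ccn2 at each time. Because the 0 h scores were so low, this order depends on the value added before the logarithm. With 10 in place of 1, the change of Ankrd1 was 3.66 at 12 h and 4.20 at 36 h, below that of Ccn2 (4.64 and 4.85), while at 24 and 48 h it remained the larger, with 4.33 beside 4.32 and 3.93 beside 3.79. Ankrd1 is also expressed in muscle, and the summed score of 3 skeletal muscle markers with rows (Myog, Des and Acta1) was 55 to 376 at 0 h, 252 to 2251 in culture and 1916 in the tissue. At 24, 36 and 48 h the third library had both the lowest score of Ankrd1 and the lowest muscle sum (252, 450 and 369), whereas the tissue, with its sum of 1916, had an Ankrd1 score of 23. The part of muscle cells in the level of Ankrd1 was not tested.

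Amotl2 encodes a junctional protein of the angiomotin family that holds YAP back in the cytoplasm, and is at the same time a YAP target. Its row was ENSMUST00000145913, on the plus strand of chr9:102716672-102720721, a short transcript of 2 exons and 781 bases. Scores at 0 h were 3297, 3772 and 6078. They were 18515 and 17357 at 12 h, 18515, 17357 and 17357 at 24 h, 18515, 17357 and 16498 at 36 h, with 19236, 16498 and 15601 at 48 h. The level was reached by 12 h, and the means of the cultured groups lay between 17112 and 17936. The range was wider at 48 h (15601 to 19236) than at 12 h (17357 to 18515). Amotl2 rose by 2.08 at 12 h (SE 0.20, limma adjusted p = 1.89e-06) and by 2.01 at 48 h (SE 0.17, adjusted p = 4.08e-07), and by 2.35 at 12 h without the third 0 h library (adjusted p = 3.56e-08).

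Axl encodes a receptor tyrosine kinase for the ligand Gas6. Its row was ENSMUST00000002677, on the minus strand of chr7:25757273-25788687, with 20 exons and 4265 bases. Scores were 3971, 4535 and 4660 at 0 h and 15128 and 13679 at 12 h. They were 15128, 15625 and 17403 at 24 h, 16542, 16542 and 17403 at 36 h, with 25068, 18563 and 19261 at 48 h. Every 48 h library was above every library of the earlier times. Axl rose by 1.72 at 12 h (SE 0.13, limma adjusted p = 2.89e-07), 1.87 at 24 h, 1.94 at 36 h and 2.25 at 48 h (SE 0.12 each, adjusted p = 2.69e-08, 1.51e-08 and 3.78e-09).

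**Figure D4:**
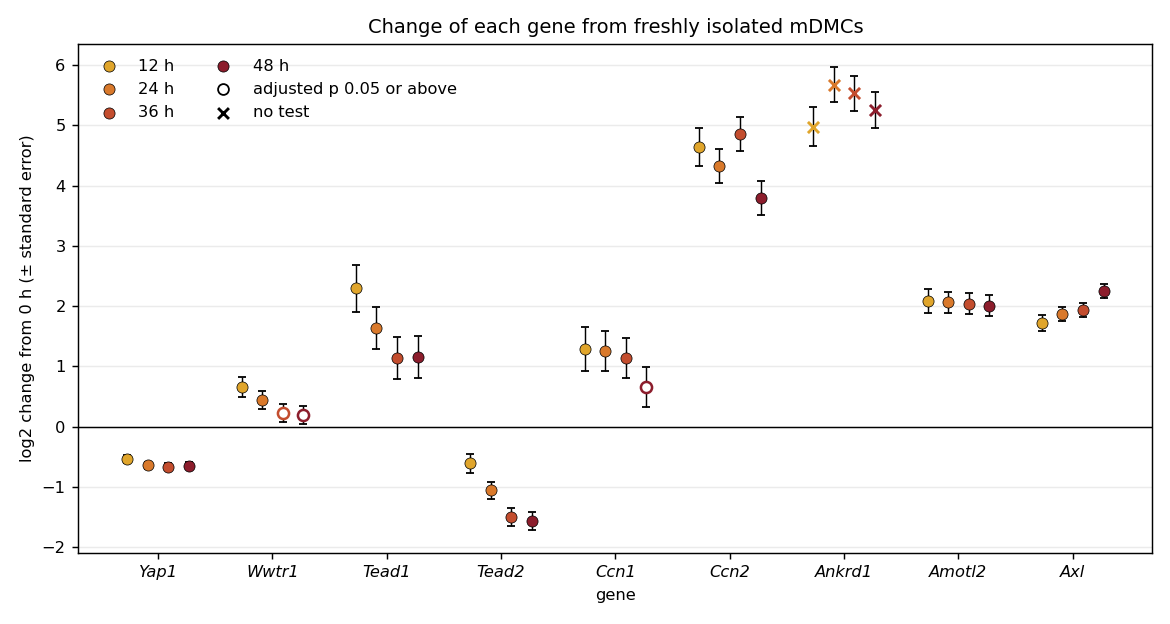
Log2 change of the 9 genes from 0 h at 12, 24, 36 and 48 h of culture, with standard errors from limma. Open points have an adjusted p of 0.05 or above, and crosses mark Ankrd1, whose change is given with no test. Ankrd1 (4.98 to 5.67) and Ccn2 (3.80 to 4.86) lie highest on this scale with 1 added to the score, Yap1 and Tead2 lie below 0 at every time, and the open points are Wwtr1 at 36 and 48 h and Ccn1 at 48 h.

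Neighbouring cultured times were compared next. Among the 9 genes none was called between 12 and 24 h or between 36 and 48 h (limma, adjusted p below 0.05), where 8.25% and 0.0248% of all transcripts were called. Between 24 and 36 h, 1 gene was called, Tead2, which fell by 0.44 (SE 0.14, adjusted p = 0.0498), against 9.64% of all transcripts called lower. This call stood at the threshold and was lost, for example, without the first 36 h library (-0.49, adjusted p = 0.0863) and with a pseudocount of 0.1 (-0.44, adjusted p = 0.0504), with a change at least as large. It was also lost with a replicate block (-0.44, adjusted p = 0.0539), which fits a mean for each replicate number and bears on this step because same-numbered libraries of 24 and 36 h deviated together. The largest step that was not called was that of Ccn2 from 36 to 48 h (-1.05, SE 0.28, adjusted p = 0.161). Without the first 48 h library it was -1.30 with adjusted p = 0.0476. By the rule with a fold above 2, 0, 0 and 1 of the 9 genes were called in these 3 steps, the last being Ccn2, against 3.68%, 4.17% and 1.36% of all transcripts.

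The comparison of 48 h with 12 h was added after the values were seen. It called 1 of the 9 genes higher and 4 lower, against 21.2% and 21% of all transcripts, and 1 in either direction by the rule with a fold above 2 (13.5% of all transcripts). Axl rose by 0.53 (limma adjusted p = 0.00609) and Tead2 fell by 0.95 (adjusted p = 0.000586) after 12 h. Wwtr1 fell by 0.46 (adjusted p = 0.0421), Ccn2 by 0.85 (adjusted p = 0.0458) and Tead1 by 1.15 (adjusted p = 0.0314). The fall of Tead1 rested on the 12 h library that stood apart, since without it the change was -0.34 (adjusted p = 0.49). The calls of Wwtr1 and Ccn2 were each lost without either 12 h library while the changes stayed close in size. Those of Wwtr1 were then -0.41 (adjusted p = 0.192) and -0.51 (adjusted p = 0.0836), and that of Ccn2 was -0.85 both times (adjusted p = 0.153 and 0.128). The call of Ccn2 was also lost with a replicate block (-0.78, adjusted p = 0.0822).

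The single library of dental mesenchymal tissue had scores of 6910 for Yap1, 3744 for Wwtr1, 1138 for Tead1, 5154 for Tead2, 6634 for Ccn1, 1433 for Ccn2, 23 for Ankrd1, 4039 for Amotl2 and 4476 for Axl. For 6 of the 9 genes this was within the range of the 0 h libraries, at log2 differences of -0.23 to 0.10 from the 0 h mean. The share of all transcripts within that range was not determined. Ccn1 was 1.25 lower than the 0 h mean on the log2 scale and below each 0 h library. Ankrd1 was 2.10 higher and Wwtr1 0.32 higher, and both were above each 0 h library. Beyond 2-fold in either direction lay 2 of the 9 genes, Ccn1 and Ankrd1, against 3.78% of all transcripts, and no test was made with 1 library.

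The rest of the pathway was described from 3 lists written from general knowledge. Of 20 listed kinases and upstream regulators 19 had a row, of which 9 rose and 5 fell by 48 h, against 37.1% and 34% of all transcripts, and 6 rose and 3 fell by 12 h (29.9% and 28.3%), with a median change of 0.15 at 48 h beside 0.03 over all transcripts. The changes thus ran both ways. Wwc1 and Wwc2 encode KIBRA and its paralogue, scaffolds that promote LATS activity. Wwc2 went from 1514 ± 224 at 0 h to 4945 ± 467 at 48 h (SD, n = 3 each; change 1.71, limma adjusted p = 3.24e-08), and Wwc1 rose by 2.11 at 12 h (adjusted p = 3.20e-08) and by 1.09 at 48 h (adjusted p = 1.41e-06). Rassf1, a scaffold of the MST kinases, rose by 1.57 (adjusted p = 1.63e-06) and Taok3, a kinase upstream of them, by 1.10 (adjusted p = 0.000105) at 48 h.

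Stk3, which encodes the kinase MST2, fell from 1772 ± 98.1 to 812 ± 58.6 (SD, n = 3 each; change -1.13, limma adjusted p = 1.90e-07), and all 11 cultured libraries were below all 0 h libraries. Fat4, a large cadherin, fell by 1.38 at 48 h (adjusted p = 0.00475). Its scores were 6810, 8295 and 19251 at 0 h and 16524 and 6631 at 12 h, so that it was high in the same libraries in which Tead1 stood apart. Lats1, the paralogue of the unmeasured Lats2, was singled out after its values were seen. Its change was 0.36 at 12 h (adjusted p = 0.0646) and 0.15 at 48 h (adjusted p = 0.363), and it was called at none of the 4 times.

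Of 15 listed TEAD factors and partners of YAP 14 had a row, of which 8 rose and 6 fell by 48 h, against the same 37.1% and 34%, and 7 rose and 5 fell by 12 h (29.9% and 28.3%), with a median change of 0.41 at 48 h. Tead4, a further TEAD gene, had scores of 38, 44 and 38 at 0 h and 428 to 507 at 48 h, a change of 3.48 (SE 0.14, limma adjusted p = 4.12e-10). Tead3, named after its values were seen, rose by 1.22 at 12 h (adjusted p = 5.33e-05) and by 0.43 at 48 h (adjusted p = 0.0219). Of the TEAD genes, Tead1, Tead3 and Tead4 were thus higher than at 0 h at 48 h and Tead2 was lower. Vgll3, a cofactor that binds TEADs, rose by 2.05 (adjusted p = 2.76e-08), while Vgll4, a TEAD cofactor that opposes YAP, fell by 1.12 (adjusted p = 1.46e-07). Ajuba, a LIM protein that inhibits LATS, rose by 1.42 (adjusted p = 1.03e-06) and Wbp2, a partner of YAP, by 1.33 (adjusted p = 5.61e-06). Btrc, the subunit of the ubiquitin ligase that targets YAP and TAZ, fell by 0.84 (adjusted p = 4.05e-06).

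All 16 further listed YAP target genes had a row, and 7 were higher, 4 lower and 5 not called at 48 h (37.1% higher and 34% lower among all transcripts), with a median change of 0.39. By 12 h, 8 rose, 2 fell and 6 were not called (29.9% higher and 28.3% lower among all transcripts). F3, which encodes tissue factor, went from 80, 142 and 172 at 0 h to 4680, 5100 and 4631 at 48 h, a change of 5.25 (SE 0.22, limma adjusted p = 6.90e-10). Nuak2, a kinase gene, went from 24, 21 and 24 to 350, 464 and 462, a change of 4.14 (adjusted p = 6.08e-11). Myof, Crim1 and Dock5 rose by 3.79, 3.03 and 2.36 (adjusted p = 6.08e-11, 4.37e-11 and 3.93e-08). Igfbp3, a binding protein of insulin-like growth factors, moved the other way, from 10976 ± 2020 to 1618 ± 526 (SD, n = 3 each), a change of -2.80 (adjusted p = 2.84e-06). The rises in this list were large in a few genes, while 9 of the 16 genes fell or were not called.

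**Figure D5:**
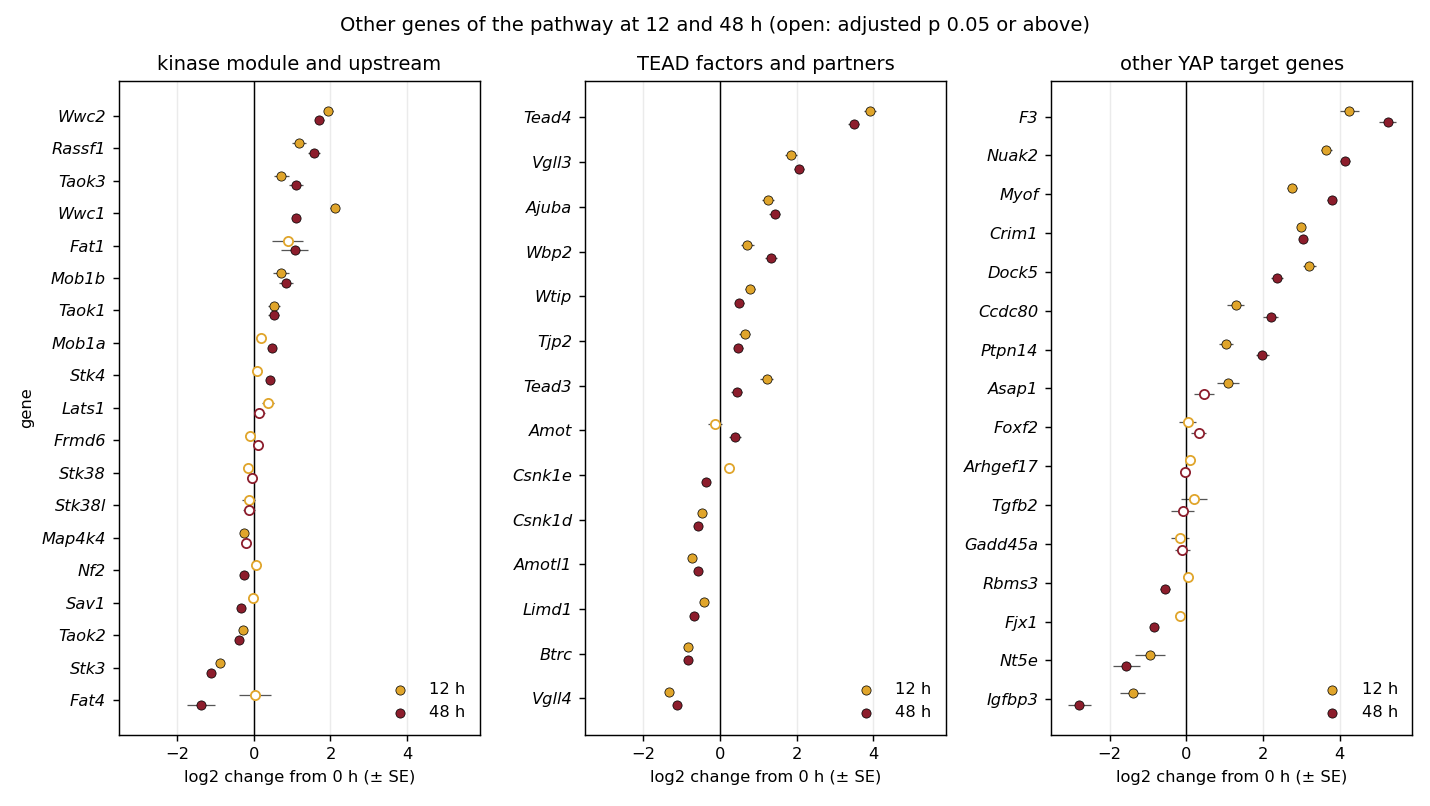
Log2 change from 0 h at 12 h and 48 h of the other genes of the pathway in 3 lists, with standard errors from limma. Open points have an adjusted p of 0.05 or above, and genes are ordered by their change at 48 h. The kinases and upstream regulators lie within -1.38 and 2.11, and the highest points are those of F3 (5.25 at 48 h), Nuak2 (4.14 at 48 h) and Tead4 (3.91 at 12 h).

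The transcripts whose scores followed each gene most closely over the 14 mDMC libraries were found by Pearson's r of log2(score + 1). These values are a description, since the points share the step from 0 h to culture. For Ankrd1 they were Cnn1 (r = 0.994) and Lmod1 (r = 0.993), both genes of smooth muscle cells, and 3.87% of transcripts had an r above 0.95. For Ccn2 they were Cacnb2 (0.989) and Kctd9 (0.985), for Amotl2 Kcnf1 (0.991) and Wwc2 (0.988), and for Axl Timp1 (0.996), an inhibitor of metalloproteinases, and Mrps18b (0.993). For Yap1 they were Klhdc10 (0.992) and Cldn5 (0.99), the latter an endothelial marker that was listed at 0 in 10 of 11 cultured libraries. Tead2 was closest to Ube2e3 and Ubfd1 (0.982 each) and Tead1 to Desi1 (0.973) and Tmem245 (0.966). Wwtr1 (Pelo, 0.936, and Ext1, 0.934) and Ccn1 (Fbxo30 and Dusp14, 0.926 each) had no transcript with an r above 0.95.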

How the data were processed

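RNA-seq of 15 libraries was used, grouped by the sample titles. The authors trimmed adaptors, aligned the reads to the mouse transcriptome (mm10) with bowtie, estimated expression with RSEM (1.1.21 in the submitters' processing notes and another version in the study's methods, so the one behind the table is not known) and called genes with DESeq2. The authors deposited 1 table of normalized expression scores, rounded to whole numbers. The table is named as cpm, but library totals of 21357605 to 21365980 and a shared maximum of 127101 go against that unit, and the normalization method is not given in the sources used here. With a distribution shared by all libraries, a change in total RNA cannot be seen, and no counts, depths or counting intervals can be given.

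Transcripts were matched to GRCm38 annotation, and 116 of 12089 were unmatched. For the 14 mDMC libraries, a mean of log2(score + 1) was estimated for each time point in limma 3.58.1, run in R 4.3.3, using an intensity trend. The 12079 transcripts tested reached 1 ppm of the summed scores (a score of at least 21.4) in at least 2 libraries. P-values were adjusted by Benjamini-Hochberg over all transcripts tested, with a threshold of 0.05. Paralogue differences were tested by exact two-sided permutation over libraries, with all cultured times pooled against 0 h, adjusted over 3 pairs. Python 3.11.15, numpy 2.4.6, pandas 2.3.3 and matplotlib 3.10.9 were used, and the fit was checked on simulated scores with known changes.

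The members, the gene lists and the tests were chosen with earlier results of these data known. Named genes were all members with a row, up to 6 genes of each pathway list with the largest change at 48 h among those called, and the 2 closest transcripts of each member. Alternatives were pseudocounts of 0.1 and 10, no filter or 1 ppm in all libraries, median-of-ratios scaling, a fit of the compared times only, the replicate number as a block, no intensity trend, the p and fold thresholds of the study's methods (p below 0.05, taken here as unadjusted, and fold above 2), and each replicate left out. A count test was not run because the table holds no counts.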

Additional observations from a re-analysis of the deposited data

How the results depend on the processing

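Against 0 h, no change of a listed gene reversed under any alternative. Among the 8 genes without Ankrd1, 7 to 8 (24 h), 7 (36 h) and 6 to 7 (48 h) were called with each replicate left out. At least 7320, 7809 and 8101 of all transcripts were called at these times in the same fits. At 12 h all 8 genes were called with a library of another time left out, beside most of all transcripts tested. Leaving out a 12 h library leaves 1 there, so no count is given for those fits. The changes of Tead2 and Ccn1 in them are given above. Under the rule of an unadjusted p below 0.05 and fold above 2, all transcripts called were 2933, 3382, 3761 and 3874 at 12, 24, 36 and 48 h against 0 h, 445 (24 h against 12 h), 504 (36 h against 24 h), 164 (48 h against 36 h) and 1633 (48 h against 12 h), and listed genes called were 0 (36 h against 24 h), 1 (48 h against 36 h) and 1 (48 h against 12 h). With only the compared times in the fit, 162 (24 h against 12 h) and 17 (48 h against 36 h) of all transcripts were called. Of the listed genes, 2 (36 h against 24 h) and 3 (48 h against 12 h) were called in this setting. Beside them, more of all transcripts were called for 36 h against 24 h than with all times in the fit, and fewer for 48 h against 12 h. Without the intensity trend, 0 listed genes were called for 36 h against 24 h and 3 for 48 h against 12 h, and with a pseudocount of 0.1, 0 were called for 36 h against 24 h. In each case slightly fewer of all transcripts were also called than with the trend and a pseudocount of 1. Median-of-ratios scaling turned the change of Tead1 from 36 to 48 h, near 0, to -0.00691. Comparing 48 h alone with 0 h gave paralogue differences of -0.84 (Yap1 minus Wwtr1), 2.71 (Tead1 minus Tead2) and -3.14 (Ccn1 minus Ccn2), each at p = 0.1 in the exact permutation test, the smallest that 3 against 3 libraries allow. The causes were not tested, except that fewer libraries were compared in this last setting.

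With each replicate left out, listed genes called ranged from 0 to 1 for each of 24 h against 12 h, 36 h against 24 h and 48 h against 36 h, and from 2 to 6 for 48 h against 12 h. All transcripts called ranged from 184 to 1231, 1078 to 2759, 0 to 199 and 3210 to 5477 in these 4 comparisons. Changes between cultured times that crossed 0 were Tead1 (-1.48 to 0.14), Ccn1 (-0.106 to 0.0531) and Amotl2 (-0.0621 to 0.0311) for 24 h against 12 h, Ankrd1 (-0.51 to 0.11) and Amotl2 (-0.0677 to 0.0155) for 36 h against 24 h, and Wwtr1 (-0.124 to 0.113), Tead1 (-0.0756 to 0.114), Tead2 (-0.211 to 0.0852) and Amotl2 (-0.12 to 0.0309) for 48 h against 36 h.

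Over 26 same-numbered pairs of libraries the correlation of deviations ran from -0.25 to 0.318 and was over 0.1 in 11, so the replicate numbers did not pair the libraries across all times. All 3 pairs were over 0.1 between 24 and 36 h (0.127 to 0.165) and between 24 and 48 h (0.201 to 0.318), as a hint from the data. With the replicate block, 0 listed genes were called for 36 h against 24 h, beside 2495 of all transcripts. For 48 h against 36 h, 7 of all transcripts were called with it, and the paralogue differences were -0.99, 2.74 and -3.28.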
